A study of Mus musculus with 8 samples.

Results

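The genes described are 9 transcription factors that set and keep hepatocyte identity: Hnf4a, Foxa1, Foxa2, Foxa3, Onecut1, Onecut2, Cebpa, Cebpb and Prox1. They were chosen by name from the 48440 genes of the count table, and all 9 were found there. RNA was sequenced from the whole liver of 8 newborn CD1 mice. The knockout group was 4 pups with a germline deletion of Myo5b, which encodes the actin motor myosin Vb. The control group was 4 littermates labelled heterozygous/wildtype, with no label that says which of these each pup was. Pups were killed between 3 and 8 days of age. The deletion is in every cell of the animal, and the age, sex and litter of single pups are not given in the labels. Each library is 1 animal, named here by its number: knockouts 275, 276, 277 and 278 and controls 279, 280, 281 and 282.

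These factors form a network of DNA-binding proteins that regulate one another and the secreted proteins and enzymes of the hepatocyte. HNF4A is a nuclear receptor that drives lipoprotein, clotting and metabolic genes. FOXA1, FOXA2 and FOXA3 are winged-helix factors, and the first of these to act in the embryo open liver chromatin before other factors bind. ONECUT1 (HNF6) and ONECUT2 are cut-homeodomain factors of hepatocytes and bile duct cells. C/EBP-alpha and C/EBP-beta are leucine-zipper factors that bind the same sites, the first known for restraining proliferation and driving metabolic genes, the second for the acute phase and regeneration. PROX1 is a homeodomain factor of hepatoblasts and hepatocytes, and also of lymphatic endothelium.

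Library totals ran from 14228268 to 18398039 counts. Myo5b itself was at 43.1 to 59.5 CPM (counts scaled by library size) in the knockouts and 94.0 to 172 CPM in the controls, a log2 fold change of -1.43 (SE 0.18, adjusted p = 3.14e-04). Which exons were deleted is not given in the labels. Adjusted p are from edgeR's quasi-likelihood test with Benjamini-Hochberg adjustment over 18274 genes, unless another tool, setting or test is named. All 20 erythroid marker genes fell, and their summed level was 775 to 1600 CPM in the knockouts against 3135 to 4516 CPM in the controls. Among 12 hepatocyte markers 9 did not pass the test, Alb and Ttr fell and Ahsg rose, and Alb stood at 27250 CPM or more in every library. In whole tissue, fewer cells of a type and less RNA per cell cannot be told apart, and this holds for every value below. With the mean erythroid level as a covariate no factor passed the test. That covariate correlated with the knockout group at -0.947, which by itself inflates the variance of the genotype estimate by a factor of 9.67. The part of erythroid content in the results was not tested.

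Cebpb, Foxa3 and Onecut2 rose in the knockout livers, by 1.37-fold, 1.29-fold and 1.26-fold, and no factor fell past the threshold. Those 3 of 9 factors stand beside 9.27% of all tested genes called higher, and 20.7% were called in either direction. Over all genes 1694 were called higher and 2088 lower, a split that turned to 2300 and 1696 with library size alone, while the same number of factors was called. Beside the lower count of 0 of 9 stand 11.4% of all tested genes called lower. At an unadjusted p under 0.05 there was 1 lower factor, Onecut1, and DESeq2 called it (adjusted p = 0.0094). Hnf4a, Cebpa and Prox1, the factors with the highest counts per library, had fold changes nearest 0. The median absolute log2 fold change of the 9 factors was 0.33, against 0.28 for all tested genes. It was 0.67 for all called genes, a set that the test selects in part for large changes. The median signed change was 0.23 over the factors and 0.0093 over all tested genes. Only Cebpb had every knockout above every control, a separation that 10.8% of tested genes showed, and the other 8 factors overlapped between the groups. Counting both directions, the groups were apart in 23.6% of tested genes.

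**Figure D1:**
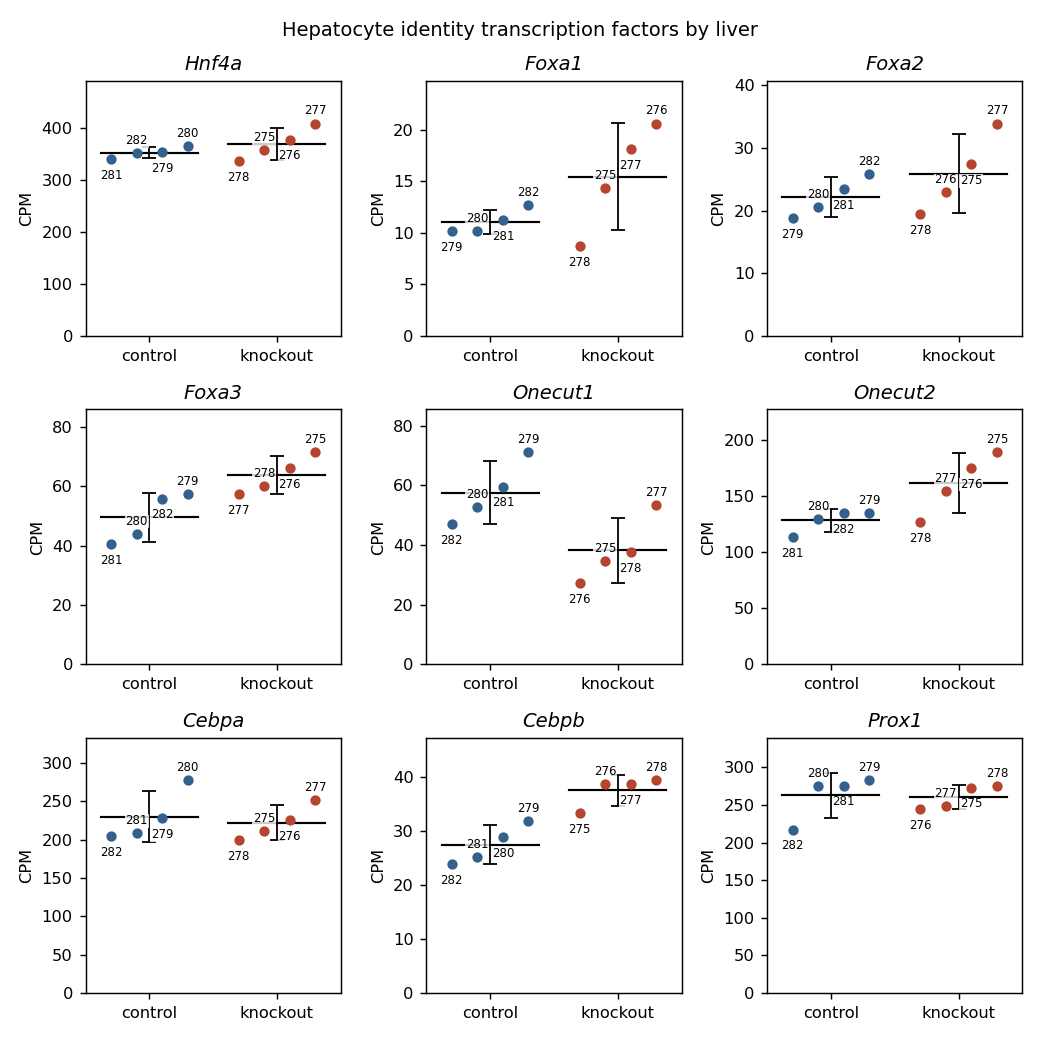
CPM of the 9 factors in each liver (vertical axes start at 0), controls in blue and knockouts in red, numbered by animal, with the mean (line) and SD (bar) of 4 livers. Cebpb is the factor whose knockout values (33.3 to 39.3 CPM) all lie above the controls (23.9 to 31.8 CPM), while Hnf4a, Cebpa and Prox1 overlap.

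Per kilobase of merged exons (RPKM), Cebpa and Hnf4a were the most abundant factors and Foxa1 the least abundant in both groups. In controls the mean RPKM ran Cebpa 87.1 ± 12.6, Hnf4a 73.2 ± 2.15, Prox1 31.3 ± 3.64, Foxa3 24.3 ± 4.12 and Cebpb 18.2 ± 2.38 (SD, n = 4). Below these stood Onecut1 at 14.0 ± 2.54, Foxa2 at 9.37 ± 1.32, Onecut2 at 7.90 ± 0.635 and Foxa1 at 3.33 ± 0.355 RPKM. In that order the ranges of neighbours overlapped for Prox1 and Foxa3, Foxa3 and Cebpb, Cebpb and Onecut1, and Foxa2 and Onecut2, so those neighbours are not ordered beyond their spread. In knockouts Foxa3 (31.3 ± 3.15 RPKM) stood level with Prox1 (31.0 ± 1.90), and Onecut1 (9.29 ± 2.66) moved below Onecut2 (9.95 ± 1.66) in the mean, with overlapping ranges. The Onecut2 level per length depends on its merged exon length of 16234 bases, most of any of the 9, and that of Onecut1 on an overlap described with its values.

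Hnf4a, the nuclear receptor at the centre of the network (ENSMUSG00000017950, chromosome 2, 163506808 to 163572910, plus strand, GRCm38), was at 358, 378, 409 and 336 CPM in knockouts 275 to 278. In controls 279 to 282 it was at 355, 366, 341 and 352 CPM. Knockouts 276 and 277 lay above every control and knockout 278 below every control. The log2 fold change was 0.07 (SE 0.08, adjusted p = 0.617), with a 95% interval of the fold from 0.930 to 1.18.

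The antisense RNA that shares the locus differed far more. Hnf4aos (minus strand, 163493807 to 163541720) had 3, 0, 10 and 4 counts in knockouts 275 to 278 and 26, 27, 26 and 19 in controls 279 to 282. Every knockout was below every control. It fell 6.76-fold in mean CPM, from 1.59 ± 0.205 to 0.236 ± 0.219 CPM (SD, n = 4; log2 fold change -2.68, SE 0.64, adjusted p = 0.00644), and it passed the test with any single library left out. In the annotation its exons share no base with those of Hnf4a, though its span covers the upstream Hnf4a start. Hnf4a has an upstream start, known as P2, and a downstream start 40298 bases further on, known as P1 and the main one of adult liver. Hnf4aos begins 5435 bases before the downstream start and runs away from it, across the upstream start. The counts are per gene and do not divide Hnf4a reads between the starts.

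The 250 bases before each start are shown because Hnf4aos begins between these starts and spans the upstream one. RefSeq (GRCm38.p6) gives entries for 8 of the 9 factors; there is none for Onecut2. Both strands of each window were searched for 6 short motifs, and capitals mark the matches. The motifs were TGTTTAC for FOXA (in 3.17% of the windows before 32851 starts) and ATCAAT for ONECUT (6.72%). The others were TTGCNNAA for C/EBP (9.56%), CAAAGTCCA for HNF4 (0.384%), TGACG for CREB-type factors (17.8%) and TATAAA, the TATA box (12.4%). A match describes the letters only.
Hnf4a upstream start, chr2:163506607-163506856, plus strand: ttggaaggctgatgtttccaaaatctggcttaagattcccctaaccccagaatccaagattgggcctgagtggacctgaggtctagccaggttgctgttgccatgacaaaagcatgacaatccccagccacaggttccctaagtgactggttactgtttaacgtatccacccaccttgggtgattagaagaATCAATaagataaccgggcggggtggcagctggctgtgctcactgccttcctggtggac
Hnf4a downstream start, chr2:163546905-163547154, plus strand: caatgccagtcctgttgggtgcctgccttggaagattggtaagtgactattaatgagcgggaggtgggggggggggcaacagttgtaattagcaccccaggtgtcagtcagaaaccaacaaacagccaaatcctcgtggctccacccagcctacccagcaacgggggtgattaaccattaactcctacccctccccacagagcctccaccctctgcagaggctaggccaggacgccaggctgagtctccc
The upstream window held 1 ONECUT match, 59 bases before the start. The downstream window held a match to none of the 6 motifs.

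Of the FOXA genes, Foxa3 rose while Foxa1 and Foxa2 did not pass the test. Foxa3 (ENSMUSG00000040891, chromosome 7, 19013284 to 19023538, minus strand), the most abundant FOXA gene here and one that remains high in adult liver, was at 71.6, 66.2, 57.4 and 60.0 CPM in knockouts 275 to 278. In controls 279 to 282 it was at 57.5, 44.1, 40.7 and 55.9 CPM. The groups met only at their edges: knockout 277 lay just under control 279 and the other 3 knockouts lay above every control. The mean went from 49.5 ± 8.39 to 63.8 ± 6.41 CPM (SD, n = 4; log2 fold change 0.37, SE 0.12, adjusted p = 0.0348). The call was lost without knockout 275 (0.31) or 276 (0.34), without control 280 (0.31) or 281 (0.28), and once Y-linked expression was in the model (0.34).

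Foxa1 (ENSMUSG00000035451, chromosome 12, 57540628 to 57546916, minus strand), an early-acting FOXA factor, was the most variable of the 9 factors among knockouts. It was at 14.3, 20.6, 18.1 and 8.68 CPM in knockouts 275 to 278, and at 10.2, 10.2, 11.2 and 12.7 CPM in controls 279 to 282. Knockouts 275, 276 and 277 lay above every control and knockout 278 below every control. The log2 fold change was 0.48 (SE 0.22, adjusted p = 0.136). Without knockout 278 it was 0.67 (SE 0.17, adjusted p = 0.00822) and passed, so that library decides the call. It also passed with no low-count filter (adjusted p = 0.0471).

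Foxa2 (ENSMUSG00000037025, chromosome 2, 148042877 to 148046969, minus strand), the paralogue of Foxa1 that also governs fasting metabolism, was at 27.4, 22.9, 33.9 and 19.5 CPM in knockouts 275 to 278. In controls 279 to 282 it was at 18.8, 20.6, 23.5 and 25.9 CPM. Knockouts 275 and 277 lay above every control and the other two among them. The log2 fold change was 0.23 (SE 0.16, adjusted p = 0.365; 95% interval of the fold 0.923 to 1.48). Knockout 278 was the lowest knockout for both Foxa1 and Foxa2, and it also had the highest erythroid level of the knockouts. The log2 ratio of Foxa3 to Foxa2 counts within a liver was 1.32 ± 0.39 in knockouts and 1.15 ± 0.34 in controls, which differ by 0.17 (two-sided exact permutation p = 0.543, n = 4). A different response of Foxa3 and Foxa2 was therefore not shown.

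The window before the Foxa3 start is shown because Foxa3 is the FOXA gene that passed the test.
Foxa3 start, chr7:19023540-19023789, minus strand: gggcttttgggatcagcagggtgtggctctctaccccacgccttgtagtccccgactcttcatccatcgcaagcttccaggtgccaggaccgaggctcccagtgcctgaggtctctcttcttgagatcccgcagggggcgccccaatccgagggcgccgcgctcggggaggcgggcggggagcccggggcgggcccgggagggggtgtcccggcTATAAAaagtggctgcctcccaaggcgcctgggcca
It held a TATA box match 36 bases before the start and none of the other 5 motifs. The Foxa1 window held a FOXA match 141 bases before its start, and the first Foxa2 window an ONECUT match 213 bases before its start.

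The ONECUT genes had fold changes of opposite sign. Onecut2 (ENSMUSG00000045991, chromosome 18, 64340020 to 64400987, plus strand) was at 189, 175, 155 and 127 CPM in knockouts 275 to 278 and at 135, 130, 113 and 135 CPM in controls 279 to 282. Knockouts 275, 276 and 277 lay above every control and knockout 278 among them. Onecut2 rose from 128 ± 10.3 to 162 ± 27.0 CPM (SD, n = 4; log2 fold change 0.33, SE 0.11, adjusted p = 0.0410). The margin was narrow: the call was lost with the omission of any library except knockout 278, at 0.25 to 0.36, and once Y-linked expression was in the model (0.31). Without knockout 278 the log2 fold change was 0.43. Onecut2 shares chromosome 18 with Myo5b and ends 10.04 Mb before it. Of 107 tested genes within 12 Mb of Myo5b, counting Onecut2 but not Myo5b, 21.5% were called, beside 20.7% of all genes.

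Onecut1, the HNF6 gene (ENSMUSG00000043013, chromosome 9, 74861921 to 74891781, plus strand), was at 34.6, 27.4, 53.4 and 37.6 CPM in knockouts 275 to 278. In controls 279 to 282 it was at 71.2, 52.6, 59.6 and 47.0 CPM. Knockouts 275, 276 and 278 lay below every control and knockout 277 among them. The mean was 38.2 ± 10.9 against 57.6 ± 10.5 CPM (SD, n = 4; log2 fold change -0.59, SE 0.20, adjusted p = 0.0630), the largest change of the 9 in absolute log2 terms. Onecut1 passed the test without knockout 277 (-0.80, adjusted p = 0.00179) or control 282 (-0.68, adjusted p = 0.0442), in DESeq2 (-0.59), in limma-voom (-0.62, adjusted p = 0.0224), without the filter on low counts (-0.59) and once Y-linked expression was in the model (-0.50, adjusted p = 0.00775). A noncoding gene on the same strand, Gm20649, shares 2171 of the 4113 exon bases of Onecut1 and was listed at 0 in every library. The sources used here do not say whether reads in the shared part went to Onecut1 or were dropped, and its absolute level is uncertain.

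Within single livers, Onecut2 counts exceeded Onecut1 counts by more in the knockouts. The log2 ratio of Onecut2 to Onecut1 was 2.45, 2.67, 1.54 and 1.76 in knockouts 275 to 278 and 0.92, 1.30, 0.93 and 1.52 in controls 279 to 282. Every knockout lay above every control, though knockout 277 and control 282 came within 0.02 of each other. The means were 2.10 ± 0.54 and 1.17 ± 0.30 (SD, n = 4), a difference of 0.94, or 1.91-fold. The exact permutation p was 0.0286 (two-sided, 70 assignments, the smallest 4 against 4 allows), and 0.0429 adjusted over the 3 ratios tested. It was 0.0571 without knockout 275 or 276 or any single control, with differences of 0.75 to 1.05. Such a ratio does not depend on how libraries are scaled. Onecut3, the remaining family member, had at most 2 counts in any library.

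The window before the Onecut1 start is shown because Onecut1 had the largest fold change of the 9.
Onecut1 start, chr9:74861671-74861920, plus strand: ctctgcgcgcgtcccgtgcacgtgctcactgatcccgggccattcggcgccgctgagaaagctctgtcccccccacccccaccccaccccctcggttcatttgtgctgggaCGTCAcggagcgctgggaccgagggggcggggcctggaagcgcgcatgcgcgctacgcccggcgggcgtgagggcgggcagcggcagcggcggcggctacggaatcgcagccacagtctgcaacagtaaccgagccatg
It held 1 CREB-type match, 139 bases before the start, and none of the other 5 motifs.

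Of the C/EBP pair, Cebpb rose and Cebpa was near its control level. Cebpb (ENSMUSG00000056501, chromosome 2, 167688915 to 167690418, plus strand, 1 exon) was at 33.3, 38.6, 38.6 and 39.3 CPM in knockouts 275 to 278 and at 31.8, 28.9, 25.2 and 23.9 CPM in controls 279 to 282. Every knockout lay above every control. The mean rose from 27.4 ± 3.57 to 37.5 ± 2.79 CPM (SD, n = 4; log2 fold change 0.45, SE 0.12, adjusted p = 0.0104; 95% interval of the fold 1.15 to 1.62). The call held with any single library left out (0.39 to 0.53) and was lost without knockout 278 and control 282 together (0.36, adjusted p = 0.0578). Tmem189, on the other strand, shares 312 exon bases with Cebpb, and was at 5.04 to 6.39 CPM in knockouts and 5.40 to 7.60 CPM in controls.

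Cebpa (ENSMUSG00000034957, chromosome 7, 35119293 to 35121928, plus strand, 1 exon) was at 211, 226, 252 and 199 CPM in knockouts 275 to 278. In controls 279 to 282 it was at 228, 277, 209 and 205 CPM. Only knockout 278 lay outside the control range, just under it, with a log2 fold change of -0.05 (SE 0.10, adjusted p = 0.799; 95% interval of the fold 0.832 to 1.13). The sign of this value turned with library size alone (0.026), without knockout 278 (0.00046) and without control 280 (0.053). The balance of the pair shifted within livers: the log2 ratio of Cebpb to Cebpa was -2.66, -2.55, -2.71 and -2.34 in knockouts 275 to 278 and -2.84, -3.26, -3.05 and -3.10 in controls 279 to 282. Every knockout was higher than every control. The difference was 0.50, or 1.41-fold (two-sided exact permutation p = 0.0286, 70 assignments, the smallest possible; 0.0429 adjusted over 3 ratios). Without knockout 276 or 278 the p was 0.0571, with differences of 0.49 and 0.42.

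The window before the Cebpb start is shown because Cebpb is the factor whose groups did not overlap.
Cebpb start, chr2:167688665-167688914, plus strand: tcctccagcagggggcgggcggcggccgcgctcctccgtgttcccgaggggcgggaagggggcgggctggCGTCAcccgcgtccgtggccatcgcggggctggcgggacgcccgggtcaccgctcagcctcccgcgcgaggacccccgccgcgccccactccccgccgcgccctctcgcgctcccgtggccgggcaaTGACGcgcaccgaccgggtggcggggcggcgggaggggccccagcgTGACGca
It held 3 CREB-type matches, 180, 53 and 7 bases before the start, and none of the other 5 motifs. The Cebpa window held a TATA box match 30 bases before its start and no other.

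**Figure D2:**
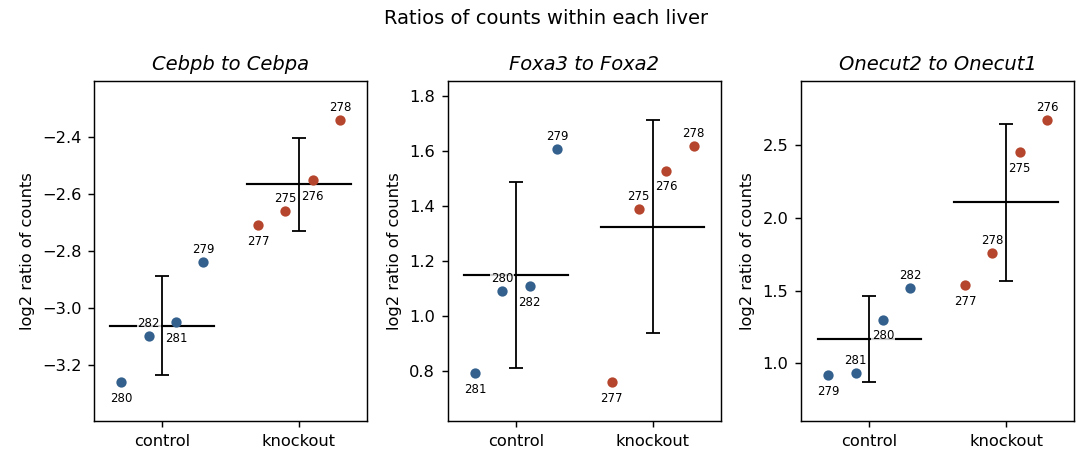
Log2 ratio of counts of paired family members within each liver, controls in blue and knockouts in red, with mean (line) and SD (bar) of 4 livers. The groups are apart for Cebpb to Cebpa (control maximum -2.84, knockout minimum -2.71) and for Onecut2 to Onecut1 (1.52 and 1.54), and overlap for Foxa3 to Foxa2.

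Prox1 (ENSMUSG00000010175, chromosome 1, 190118035 to 190170714, minus strand) had the fold change nearest 0 of the 9. It was at 273, 245, 248 and 275 CPM in knockouts 275 to 278 and at 283, 275, 276 and 217 CPM in controls 279 to 282. Control 282 was the lowest library and every knockout lay inside the control range. The log2 fold change was -0.01 (SE 0.09, adjusted p = 0.944), with a 95% interval of the fold from 0.866 to 1.13, and its sign turned with library size alone (0.057) and upper-quartile scaling (0.018), and with 5 of the 8 single libraries left out (up to 0.023). Its antisense neighbour Prox1os, which shares 133 exon bases with it, was at 1.09 to 2.32 CPM in knockouts and 2.21 to 2.55 in controls (log2 fold change -0.61, SE 0.35, adjusted p = 0.243).

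Of the 8 tested relatives in the same families, Cebpd and Cebpg rose, Hnf4aos fell and 5 did not pass, beside 20.7% of all tested genes called. Cebpd, the C/EBP-delta gene of the acute phase, rose from 10.9 ± 2.46 to 18.9 ± 0.660 CPM (SD, n = 4; log2 fold change 0.79, SE 0.16, adjusted p = 0.00219). Cebpg, a C/EBP partner without an activation domain, rose from 42.6 ± 1.61 to 61.1 ± 5.51 CPM (0.52, SE 0.09, adjusted p = 6.65e-04). In both genes every knockout lay above every control, a separation that 10.8% of tested genes showed. Cebpe, a granulocyte factor (0.41, adjusted p = 0.470), Ddit3, the stress-induced CHOP gene (0.45, adjusted p = 0.249), Hnf4g (0.87, adjusted p = 0.121) and Prox2 (-0.04, adjusted p = 0.939) did not pass. Hnf4g also had every knockout (2.0 to 4.41 CPM) above every control (0.939 to 1.75 CPM).

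Among 27 other liver-enriched transcription factors 6 rose and 2 fell, beside 9.27% of all tested genes called higher and 11.4% called lower. Their median log2 fold change was 0.13 against 0.0093 for all genes. Atf5, a leucine-zipper stress factor, rose from 249 ± 32.9 to 475 ± 126 CPM (SD, n = 4; log2 fold change 0.93, SE 0.17, adjusted p = 0.00361). Tbx3, a T-box factor of hepatoblasts and pericentral hepatocytes, rose by 0.74 (SE 0.13), Zhx2, a repressor of fetal liver genes, by 0.68 (SE 0.13) and Hhex, a homeobox factor of liver bud outgrowth, by 0.44 (SE 0.12). Hhex lost its call without knockout 276 (0.37). Xbp1 (0.30) and the nuclear receptor gene Nr0b2 (0.43) also rose, while the receptor genes Nr1h4 (-0.39) and Ppara (-0.25) fell. The number that rose was 4 without knockout 276 or control 281 and 9 without knockout 278, and the number that fell was 0 or 1 with any single library left out. It was 0 with library size alone, with upper-quartile scaling and with either covariate. It was 1 with median-ratio scaling and with no low-count filter. The number that rose was also 9 with library size alone, and it was 1 with the erythroid covariate.

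**Figure D3:**
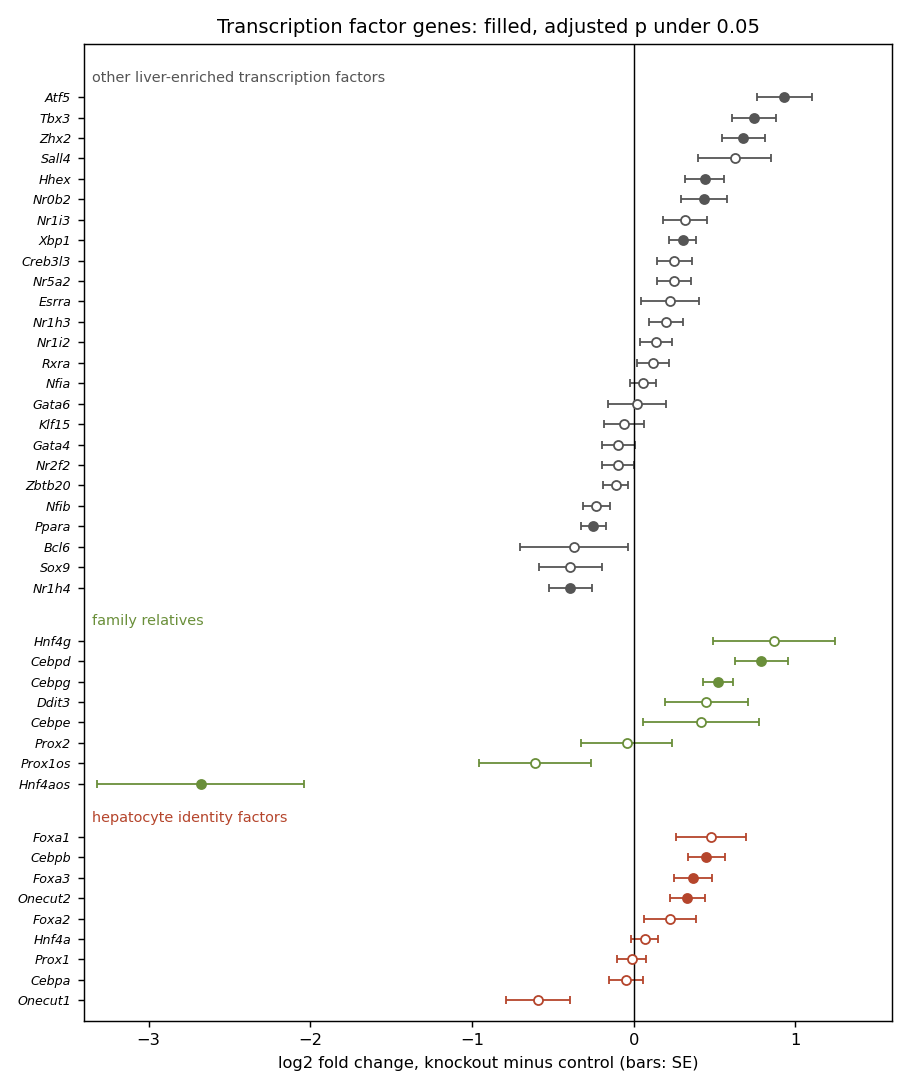
Log2 fold change (knockout minus control, horizontal axis, bars SE) of the 9 factors, their family relatives and other liver-enriched transcription factors, filled where the adjusted p is under 0.05. The 9 factors lie between -0.59 (Onecut1) and 0.48 (Foxa1), while Hnf4aos is at -2.68.

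Genes listed here as targets of these factors changed in both directions. Of 26 listed HNF4A targets 11 fell and 2 rose (median log2 fold change -0.18). Apoc3, an apolipoprotein gene, fell from 29.3 ± 9.02 to 9.67 ± 1.97 CPM (-1.60, SE 0.24), the urea cycle gene Otc by 1.21 (SE 0.10), Ttr by 0.97 (SE 0.10) and the tight junction gene Cldn1 by 0.49 (SE 0.08), with adjusted p from 9.68e-07 to 5.66e-04. Mttp (0.42) and F12 (0.31) rose; none of the list rose without knockout 277, and 1 rose without control 279, 280 or 282. With library size alone 9 of the list fell and 4 rose. Apoa1, Apob and Fabp1 were among the 13 that did not pass.

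Of 13 FOXA targets 5 fell and 3 rose (median -0.24). Alb, the albumin gene, fell from 68617 ± 8598 to 32558 ± 4519 CPM (SD, n = 4; log2 fold change -1.08, SE 0.11, adjusted p = 5.74e-06), and Cps1, a urea cycle enzyme gene, fell by 0.78 (SE 0.12). Igfbp1, a fasting-induced binding protein gene, rose from 774 ± 87.8 to 5268 ± 463 CPM (2.77, SE 0.10, adjusted p = 7.01e-11), and it was the 1 that rose without knockout 275, 276 or 277 or control 279, 281 or 282. Of 19 tested C/EBP targets 7 fell and 4 rose (median -0.15). Ass1 fell by 1.22 (SE 0.13), while the glycogen synthase gene Gys2 rose by 1.12 (SE 0.13). Of the acute-phase genes of the list, Hp, the haptoglobin gene, rose by 0.50 (SE 0.10, adjusted p = 0.00187) and Hamp, the hepcidin gene, by 1.73 (SE 0.48, adjusted p = 0.0496). Crp fell by 0.33, and Orm1, Itih3, Itih4 and Lcn2 did not pass. Hamp lost its call with any single library left out except knockout 276 (1.35 to 1.98), and Fasn (0.30, adjusted p = 0.0419) with any except knockout 275 (0.21 to 0.33). Without knockout 277 or 278 or any single control, 2 of the list rose, Gys2 and Hp.

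Of 12 ONECUT targets 5 fell and 1 rose (median -0.45). Sds, a serine-degrading enzyme gene, fell from 20.5 ± 7.24 to 2.32 ± 1.10 CPM (SD, n = 4; log2 fold change -3.14, SE 0.37, adjusted p = 1.97e-04) and G6pc by 0.64 (SE 0.12), while Apoa4 rose by 4.59 (SE 0.53). Several genes stand in more than 1 of these lists, and each list is shorter than the set of genes its factor binds. Over all tested genes 20.7% were called, and the list counts are descriptions beside that share. In the same livers erythroid markers had a median log2 fold change of -1.94, and their part in these changes was not tested.

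**Figure D4:**
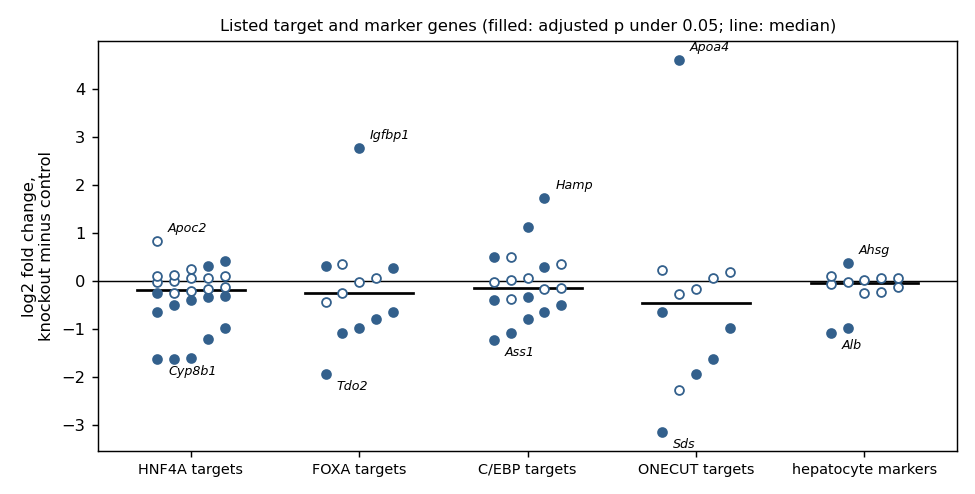
Log2 fold change (knockout minus control, vertical axis) of single genes in the 4 target lists and the hepatocyte markers, filled where the adjusted p is under 0.05, with the median as a line. The medians run from -0.45 (ONECUT targets) to -0.03 (hepatocyte markers), with genes of each target list on both sides of 0.

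Other cells of the liver that express some of the 9 factors differed between the groups in part. Beside the list counts here stand 9.27% of all tested genes called higher and 11.4% called lower. Kupffer cell and macrophage markers, cells that also express Cebpb and Cebpa, rose in 11 of 12 genes. Their summed level was 1647 to 1917 CPM in knockouts and 923 to 1060 CPM in controls. None of the 12 was at 0, and Clec4f, the Kupffer cell lectin gene, rose from 101 ± 12.6 to 209 ± 30.2 CPM (SD, n = 4; log2 fold change 1.05, SE 0.11). Their part in the Cebpb rise was not tested. Of 12 granulocyte markers 1 fell (Ltf, -0.44, a call lost without knockout 276 or 277 or control 281 or 282, at -0.42 to -0.35) and none rose, with overlapping summed levels of 601 to 971 and 782 to 999 CPM. The Ltf call was also lost with library size alone (-0.38), and Elane (0.47, adjusted p = 0.208) was called higher without knockout 277 (0.66) and with no filter on low counts. Cholangiocyte markers, from cells that express the ONECUT and FOXA genes, summed to 119 to 134 CPM in knockouts and 122 to 128 CPM in controls. Of the 10 tested, Tspan8 fell (-1.44, SE 0.30), and Krt19 was at 5.86 ± 0.717 and 5.00 ± 1.09 CPM. Without control 280, 1 of the 10 was called higher. Of 6 tested lymphatic endothelial markers, from cells that express Prox1, Lyve1, which sinusoidal endothelium also expresses, rose (0.52, SE 0.12). In Flt4 every knockout lay above every control, a separation that 10.8% of tested genes showed. Flt4 narrowly missed the threshold (0.24, SE 0.08, adjusted p = 0.0541). It was called in DESeq2, with each other scaling, with the 1 CPM filter, and without knockout 276 (0.29) or 278 (0.26). Reln was called lower (-0.26) without knockout 278. The sums for that list were 669 to 813 and 782 to 846 CPM.

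Likeness to the called factors was measured as the root mean squared difference of log2 CPM, each gene centred on its own mean over the 8 libraries, among 10996 genes. Nearest to Cebpb were Lgmn, the gene of the lysosomal protease legumain, at 0.073 and Sgk1, a glucocorticoid-induced kinase gene, at 0.078, against a root mean square of 0.263 for Cebpb itself. Both were called higher, by 0.50 (SE 0.08) and 0.48 (SE 0.10). They were picked for likeness to Cebpb over these same libraries, so a similar rise follows from the choice. Nearest to Foxa3 were Prkg1 (0.087) and Tlcd1 (0.089), and nearest to Onecut2 were Abca6 (0.071) and Eef1b2 (0.077). Of these 4 only Abca6 passed the test (log2 fold change 0.33, SE 0.10), a call lost without knockout 275 or 276 or control 279, 281 or 282, at 0.25 to 0.34.

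**Figure D5:**
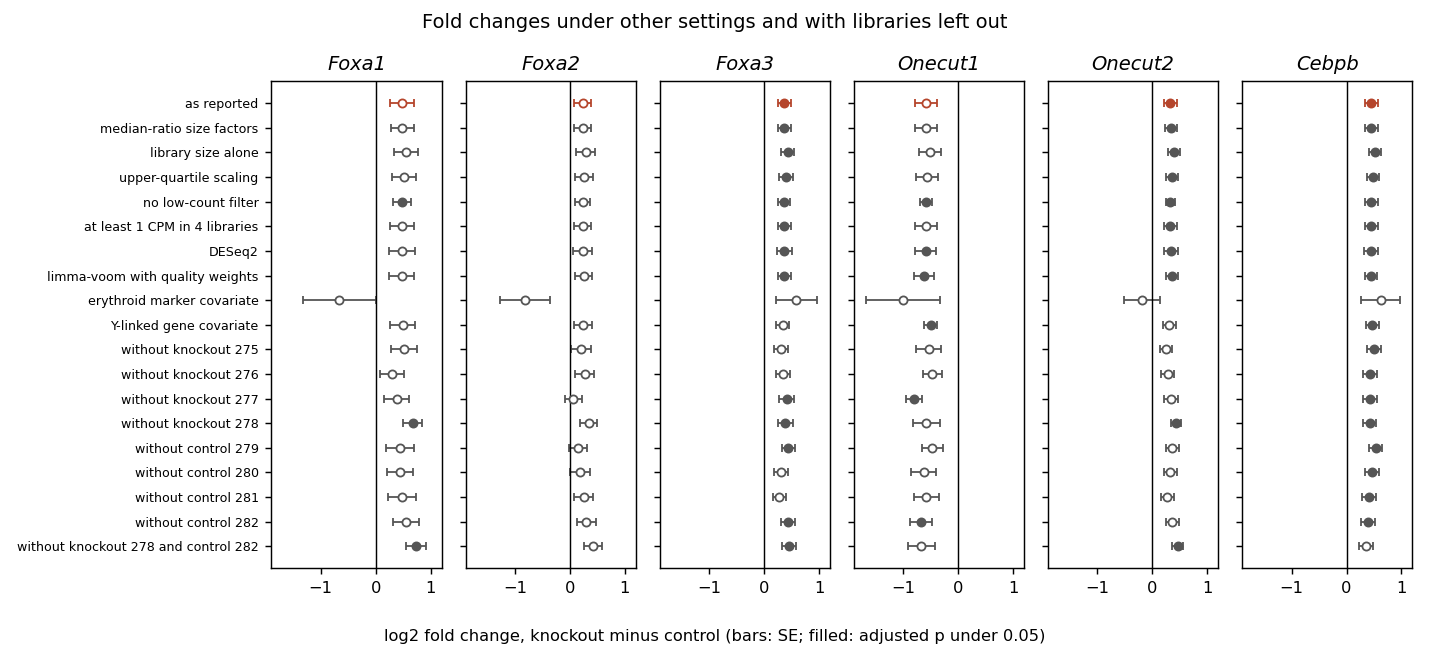
Log2 fold change (knockout minus control, horizontal axes, bars SE) of 6 factors under each alternative and with libraries left out, filled where the adjusted p is under 0.05. Cebpb keeps its call in every omission of 1 library, whereas Foxa3, Onecut1, Onecut2 and Foxa1 cross the threshold with some, and the erythroid covariate widens every error bar.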

How the data were processed

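RNA from the whole liver of 8 pups was sequenced. The deposited table gives, for each Ensembl gene, a whole number of reads, and these counts were used. Per the labels' protocols, alignments were made with Rsubread 2.20.0 (R 4.4.1, BiocManager 1.30.26). Per the submitters' processing notes, featureCounts did the counting for the authors. The build, spelled GRMm38 in the protocol, was read as GRCm38. The sources used here do not state the annotation, the strand setting or how reads shared by overlapping genes were treated. The authors used DESeq2 1.46.0, per the series' design text, and no fold change of theirs entered this work.

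Symbols, positions and merged exon lengths came from GENCODE M21 (GRCm38), which matched 48058 of 48440 identifiers. The filter filterByExpr of edgeR (minimum count 10, minimum total 15) left 18274 genes, with all 9 factors among them. Counts were scaled by TMM and tested with the quasi-likelihood F-test of edgeR 4.0.16 (robust, R 4.3.3, limma 3.58.1). P-values were adjusted by Benjamini-Hochberg over the 18274 genes, with a threshold of 0.05. The SE is the log2 fold change divided by the square root of F, and 95% intervals are from the same fit. RPKM values are CPM per kilobase of merged exons. Ratios of counts within a library used a pseudocount of 0.5 and an exact two-sided permutation test over 70 assignments. Likeness used log2 CPM with a prior count of 2. Scripts were tested on simulated data. Figures were drawn with matplotlib 3.10.9.

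The members and gene lists were chosen with earlier results of these data known. Named genes were the 9 factors, Myo5b, each tested relative of their families, up to 4 genes of smallest p in each other list, and the 2 genes of at least 5 CPM most like each called factor. Other genes named beside counts, such as Nr1h4, Ppara, Nr0b2, Xbp1, Mttp and F12, were chosen after their values were seen. Each pup is 1 library, and nothing in the labels ties pups to litters. Some genes that count in the lists are not reported here by name, and the plot of transcription factor genes leaves them out.

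Alternatives changed the scaling (median-ratio, upper-quartile or library size alone), the filter (none, or at least 1 CPM in 4 libraries) or the tool (DESeq2 1.42.0, limma-voom). Others added a covariate (mean erythroid marker level, or Y-linked genes) or left out each library in turn. Leaving out knockout 278 and control 282 together was chosen after seeing the data. Libraries of 1 group differed beyond sampling noise in every pair, with chi-square divided by its degrees of freedom from 12.9 to 24.0.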

Additional observations from a re-analysis of the deposited data

Results flagged for a closer look

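Within each group of 4 livers, the highest or lowest value was marked where its gap to the nearest other value, as a share of the group's range, passed Dixon's 95% critical value for 4 values. Chance alone marks about 1 in 20 groups, and 9 of 116 groups were marked. Among the 9 factors there were 2: Cebpb in knockout 275 was 33.3 CPM beside 38.6 to 39.3 in the other knockouts, and Prox1 in control 282 was 217.3 CPM beside 275.2 to 282.7. In knockout 275 Hnf4g was 4.41 CPM (others 2.0 to 2.24). In knockout 278 Atf5 was 662.6 CPM (others 399.4 to 433.1), Add2 23.4 CPM (others 12.6 to 13.6) and Tspan8 3.52 CPM (others 1.47 to 1.74). In control 281 Cebpg was 45.0 CPM beside 41.8 in each other control, and Mpeg1 was 94.9 CPM (others 71.6 to 74.6). In control 280 Gys2 was 200.1 CPM (others 175.5 to 179.2).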

How the results depend on the processing

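The number of the 9 factors called higher was 3 as reported, 1 to 4 with single libraries left out (1 without knockout 275 or 276 or control 280 or 281, 4 without knockout 278), 1 with the Y-linked covariate and 0 with the erythroid covariate. The number called lower was 0 as reported, 0 to 1 with single libraries left out (1 without knockout 277 or control 282), and 1 without the filter on low counts, in DESeq2, in limma-voom and with the Y-linked covariate, each time Onecut1. With the erythroid covariate 18 genes were called higher and 15 lower. No paired analysis was possible because the labels do not give the litter of each pup.

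Under the erythroid covariate Foxa3 (0.59) and Cebpb (0.62) lost their calls, and Hnf4a (-0.26), Foxa1 (-0.66), Foxa2 (-0.82), Onecut2 (-0.19), Prox2 (0.71), Tspan8 (0.26), Lyve1 (-0.50), Flt4 (-0.04), Ltf (0.10), Abca6 (-0.21) and Eef1b2 (-0.36) turned in sign, none of them called. Of the family relatives, 1 that did not pass as reported was called higher with the erythroid covariate. Under the Y-linked covariate Foxa3 (0.34) and Onecut2 (0.31) lost their calls, Onecut1 (-0.50) gained one and Prox1 turned (0.0058). Without that filter Foxa1 (0.48) and Onecut1 (-0.59) were called, as Onecut1 was in DESeq2 (-0.59) and limma-voom (-0.62). With library size alone Cebpa (0.026), Prox1 (0.057) and Prox2 (0.025) turned, as Prox1 did with upper-quartile scaling (0.018). Without knockout 278 and control 282 together, Foxa1 (0.74) was called, Cebpb (0.36) was not, and the ratios Cebpb to Cebpa (0.41) and Onecut2 to Onecut1 (1.17) had p = 0.100, the smallest exact permutation p of 3 against 3.

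With single libraries left out the log2 fold changes ran from 0.30 to 0.67 for Foxa1, 0.28 to 0.44 for Foxa3, -0.80 to -0.47 for Onecut1, 0.25 to 0.43 for Onecut2, 0.39 to 0.53 for Cebpb, -0.12 to 0.053 for Cebpa, -0.10 to 0.023 for Prox1 and -0.15 to 0.05 for Prox2. The ratio differences ran from 0.42 to 0.57 for Cebpb to Cebpa and 0.75 to 1.12 for Onecut2 to Onecut1, with exact permutation p of 0.0286 or 0.0571. Of the 35 other genes named by the rule above and called, 32 to 35 kept their call in each omission of 1 library. Under the erythroid covariate 2 of them (Atf5 and Igfbp1) kept it. Most of the 35 were taken for the smallest p in their lists. Hamp and Fasn, which lost their calls in most omissions, are not among them. The causes were not tested.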
